A study of Mus musculus with 16 samples.

Results

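Distal three-factor regions are stretches of the mouse genome that held a peak of Foxn3, of Foxn4 and of Rfx3 in embryonic retina and whose midpoint lay more than 1 kb from both ends of every protein-coding gene. They were chosen by merging all peaks of the 3 lists that overlapped by at least 1 bp, so the presence of a peak in every list and the distance from gene ends are properties of the choice and not results. Of 6155 merged regions, 875 held a peak of every list (14.2%), and 345 of these were distal. The other 530 lay within 1 kb of a gene end and are called gene-end three-factor regions below. Distal regions with peaks of only a pair of the factors served for comparison: 564 held Foxn3 and Rfx3 peaks without Foxn4, and 181 held Foxn3 and Foxn4 peaks without Rfx3.

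The peaks came from CUT&RUN, in which an antibody directs micrococcal nuclease to a protein in unfixed cells so that the adjoining DNA is released and sequenced. The tissue was whole retina of CD-1 embryos, an outbred mouse stock, at embryonic day 16, pooled and dissociated before about 300000 cells entered each assay. Of 16 libraries, 4 used anti-Foxn3 antibody, 2 anti-Foxn4 and 2 anti-Rfx3, and the other 8 were rabbit or mouse IgG controls. The Foxn4 libraries and their mouse IgG controls were digested for about 12 h and all others for 1 h, so the Foxn4 list differs from the others in digestion time and control species as well as in antibody, and these cannot be told apart. Each antibody had 1 peak list, and no value below has a spread between replicates. Depth per library is unknown from these lists. Because the retina was not sorted, peaks cannot be assigned to a cell type.

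RFX proteins bind the X-box, a pair of inverted copies of a short sequence, and Rfx3 is known as a regulator of genes that build cilia. Forkhead proteins bind DNA through a winged-helix domain. Foxn4 is known for directing retinal progenitors towards amacrine and horizontal cells, and Foxn3 is mostly described as a repressor. Binding sites away from gene ends often lie in enhancers, which act on promoters at a distance, or in promoters of alternative transcripts.

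A distance of over 1 kb from both ends of a gene did not mean that a region lacked an annotated transcription start. RefSeq promoter windows, which give the start of each annotated transcript on the same assembly, could be compared with 333 members. The other 12 had no window to compare. Distal here means away from gene ends only: a start lay inside 61 of the 333 (18.3%, 95% Wilson interval 14.5% to 22.8%). It belonged to a protein-coding gene in 46 and only to a gene not labelled so, taken as a long non-coding RNA, in 15. Among the 15 were 3300002A11Rik inside Foxn3, Chaserr beside Chd2 and Mir22hg beside Wdr81. A start lay in 84.6% of gene-end three-factor regions, in 20.5% of distal regions with Foxn3 and Rfx3 only, and in 4.02% of those with Foxn3 and Foxn4 only. The intervals on these shares cover counting error only.

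The sequence before the start is shown for 6 of these regions because the sources used here hold bases only for such promoter windows. Each is the 250 bases before the start, read 5′ to 3′ on the strand of the transcript, from RefSeq on GRCm38.p6. Capitals mark matches on either strand to GTTNCC, the core of the RFX motif, to the X-box palindrome or to GACGC, a short motif bound by some forkhead proteins of the Foxn type. The Rfx1 window (chr8:84066586-84066835, plus strand) has no match in the bases shown, although 2 GTTNCC matches lie in the 50 bases after the start, which are not printed. The Btbd17 window (chr11:114795893-114796142, minus strand) has the only X-box palindrome found in the 61 promoter windows searched. The bases of the regions themselves were not searched. The others are 3300002A11Rik (chr12:99340781-99341030, plus strand), Fgd4 (chr16:16560220-16560469, minus strand), Fam161a (chr11:23008097-23008346, plus strand) and Bbs2 (chr8:94098510-94098759, minus strand). The Bbs2 window runs past the end of its member. The highest-scoring Foxn4 peak does not overlap the Btbd17 window. Neither the highest-scoring Foxn3 peak nor the highest-scoring Foxn4 peak overlaps the 3300002A11Rik window.
Rfx1: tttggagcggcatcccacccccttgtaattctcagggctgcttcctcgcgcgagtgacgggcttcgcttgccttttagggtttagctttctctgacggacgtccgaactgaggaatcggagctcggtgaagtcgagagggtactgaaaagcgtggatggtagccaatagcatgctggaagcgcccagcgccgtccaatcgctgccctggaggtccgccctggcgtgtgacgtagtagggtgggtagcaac
Btbd17: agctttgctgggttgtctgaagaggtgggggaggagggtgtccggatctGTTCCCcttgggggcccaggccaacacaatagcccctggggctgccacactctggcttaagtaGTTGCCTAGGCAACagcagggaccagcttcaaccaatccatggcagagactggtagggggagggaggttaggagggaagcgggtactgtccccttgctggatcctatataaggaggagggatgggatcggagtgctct
3300002A11Rik: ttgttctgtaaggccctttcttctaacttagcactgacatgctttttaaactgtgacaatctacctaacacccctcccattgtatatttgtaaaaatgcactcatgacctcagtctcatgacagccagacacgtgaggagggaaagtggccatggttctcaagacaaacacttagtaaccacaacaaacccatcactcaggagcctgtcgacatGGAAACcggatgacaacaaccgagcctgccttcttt
Fgd4: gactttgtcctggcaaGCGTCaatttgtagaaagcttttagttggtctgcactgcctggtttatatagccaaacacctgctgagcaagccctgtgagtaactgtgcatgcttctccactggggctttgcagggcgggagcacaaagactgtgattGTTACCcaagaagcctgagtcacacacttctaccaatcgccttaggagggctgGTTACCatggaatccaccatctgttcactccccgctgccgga
Fam161a: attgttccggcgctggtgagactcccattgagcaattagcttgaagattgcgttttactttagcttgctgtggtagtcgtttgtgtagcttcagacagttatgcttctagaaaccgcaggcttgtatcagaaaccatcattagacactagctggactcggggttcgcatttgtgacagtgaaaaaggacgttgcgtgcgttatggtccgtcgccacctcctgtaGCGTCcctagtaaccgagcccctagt
Bbs2: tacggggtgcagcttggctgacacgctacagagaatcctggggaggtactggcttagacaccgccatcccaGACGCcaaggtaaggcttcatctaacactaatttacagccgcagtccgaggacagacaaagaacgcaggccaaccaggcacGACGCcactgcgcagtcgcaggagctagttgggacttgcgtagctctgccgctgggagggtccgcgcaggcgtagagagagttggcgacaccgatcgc

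The motifs were counted in windows of 300 bases, 250 before and 50 after the start, on both strands. GTTNCC was in 35 of the 61 member windows (57.4%, interval 44.9% to 69.0%), in 53.1% of the 441 gene-end windows and in 45.3% of all 32851 windows. GACGC was in 26 member windows (42.6%, 31.0% to 55.1%), against 53.1% and 27.2%. The forkhead motif GTAAACA was in none of the 61 (interval up to 5.92%), against 2.04% of gene-end windows and 3.65% of all windows. The X-box palindrome, searched with spacers of 0 to 3 bases, was in 1 of 61 (1.64%), against 0.907% and 0.804%. The other motifs, with the share of all windows, were CAGCTG in 13.1% (16.3%), CAGATG in 16.4% (17.2%), TAATTA in 3.28% (5.29%), TAATCC in 1.64% (7.06%), GNGGNGGCA in 6.56% (8.96%) and TGANTCA in 8.20% (7.81%). Matches of different motifs can share bases. Member windows had a median GC content of 62.0% against 52.7% for all windows and 61.0% for gene-end windows. Their median ratio of observed to expected CG pairs was 0.766, against 0.384 for all windows and 0.811 for gene-end windows. A share above that of all windows thus goes with a higher content of GC and of CG pairs, whose part in it was not tested. A match is a description of letters and not a binding site.

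The peaks of the 3 factors lay close together. Members were formed by joining overlapping peaks, so close midpoints and shared bases are in large part set by the choice. Other classes of regions were not measured for comparison. The midpoints of the Foxn3 and Rfx3 peaks were a median of 46 bp apart, those of Foxn3 and Foxn4 50.5 bp and those of Foxn4 and Rfx3 58 bp. In 341 members the highest-scoring peak of each list shared bases, a median of 356 bp. The regions were a median of 658 bp wide (309 to 2135 bp), and 334 of them held exactly 1 peak of each list. The Rfx3 peak was the widest of the 3 in 225 members and the Foxn4 peak the narrowest in 219. The whole lists had the same order, with median widths of 469 bp for Rfx3, 384 bp for Foxn3 and 351 bp for Foxn4. This order is thus not particular to the members.

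**Figure D1:**
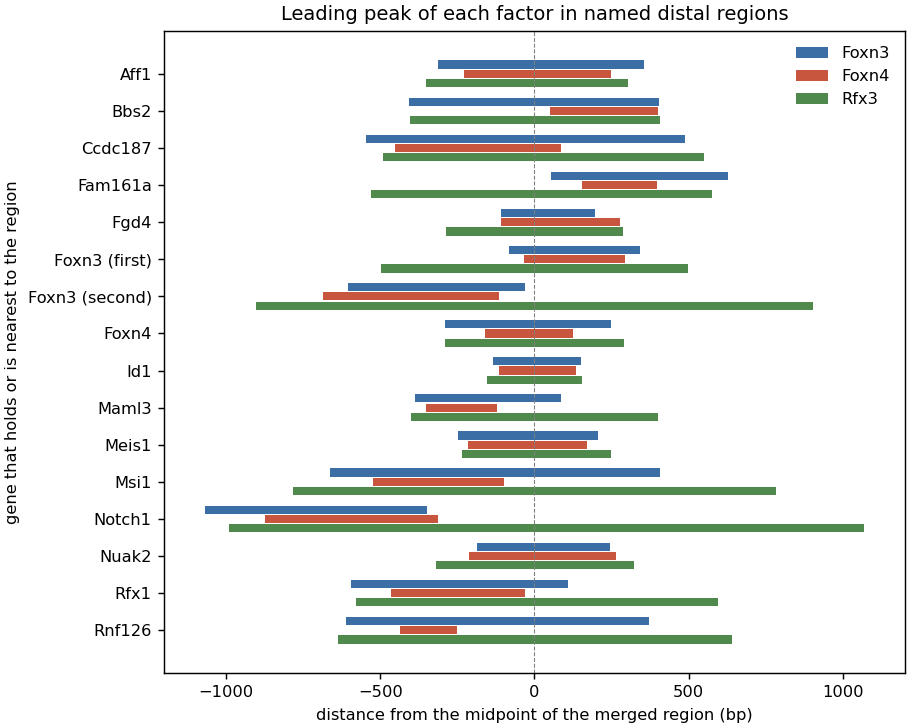
Extent of the leading (highest-scoring) Foxn3, Foxn4 and Rfx3 peak in 16 named distal regions, in bp from the midpoint of each merged region; bars run from the start to the end of a peak. In wide regions such as those at Notch1, Rnf126 and the second at Foxn3, the Rfx3 peak spans nearly all of the region and the Foxn4 peak covers a short part of it.

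The score of a peak is the authors' own value. Its scaling is not given in the sources used here, so it was read only as a percentile within its own list, with ties shared. A total of 12 members ranked high in every list, chosen by the lowest of their 3 percentiles, with ties for the tenth place kept. Both regions inside Foxn3 itself were among them. The first (chr12:99219924-99220917) had scores of 423 for Foxn3, 15.1 for Foxn4 and 652 for Rfx3, which are percentiles of 99.1 for Foxn3, 95.3 for Foxn4 and 96.0 for Rfx3, and lay 30.3 kb from the nearest gene end. The second (chr12:99339493-99341298), which held the start of 3300002A11Rik, had percentiles of 96.2, 87.6 and 99.8, with the Rfx3 score at 1932. Its highest-scoring Rfx3 peak covered that start, but its highest-scoring Foxn3 and Foxn4 peaks did not reach it. The region at a start of Rfx1 (chr8:84066308-84067497), which encodes another RFX protein, had 95.1, 95.3 and 96.1, and its midpoint was 0.066 kb downstream of that start. These regions show peaks of all 3 factors near the top of their lists at genes of the factors' own families.

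The region inside Notch1 (chr2:26500411-26502545), the receptor that keeps retinal progenitors undifferentiated, was the widest member at 2135 bp and had percentiles of 86.8 for Foxn3, 96.2 for Foxn4 and 93.3 for Rfx3. Its midpoint lay 2.34 kb downstream of an annotated start. Msi1, an RNA-binding protein of neural progenitors, held 2 members, of which the high-ranking one (chr5:115436203-115437766) had 86.8, 83.5 and 98.5 and the other 9.65, 36.7 and 50.8. The region at a start of Fam161a (chr11:23007518-23008771), which encodes a protein of the photoreceptor cilium, had 97.0, 87.6 and 93.0. The other high-ranking members lay inside Aff1, Nuak2, Ccdc187, Fgd4 and Rnf126, and outside genes with Anxa1 as the nearest, 251 kb away. Exons are not annotated in the table used, so whether these are exonic or intronic is not given.

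Most members did not rank high in every list, and neither did most gene-end three-factor regions. Peaks in members had a median percentile of 36.9 in the Foxn3 list and 35.3 in the Rfx3 list, but 71.5 in the Foxn4 list. In gene-end three-factor regions the medians were 46.5, 40.2 and 62.5. Distal regions with Foxn3 and Foxn4 only had medians of 12.3 for Foxn3 and 78.3 for Foxn4. Those with Foxn3 and Rfx3 only had 63.0 for Foxn3 and 73.5 for Rfx3. A high Foxn4 rank is thus not particular to three-factor regions. In the whole lists, 49.9% of Foxn3, 42.6% of Foxn4 and 49.6% of Rfx3 peaks scored above the list median. A score above it for every factor was found in 60 members (17.4%), near the 18.7% of gene-end regions (99 of 530). Another 140 members (40.6%, interval 35.5% to 45.8%) had one above it for Foxn4 alone. The share with Foxn4 alone above was 21.9% (116 of 530, 18.6% to 25.6%) in gene-end regions. Of the remaining members, 46 were above the median in no list, 44 for Foxn3 and Rfx3 together, 23 for Rfx3 alone, 17 for Foxn4 and Rfx3, 10 for Foxn3 and Foxn4 and 5 for Foxn3 alone. Foxn4 scores are heavily tied: 393 Foxn4 peaks, 34 of them in members, have exactly the median score of 7.11 and count as not above it. These ranks come from the same lists that chose the members and carry no test.

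**Figure D2:**
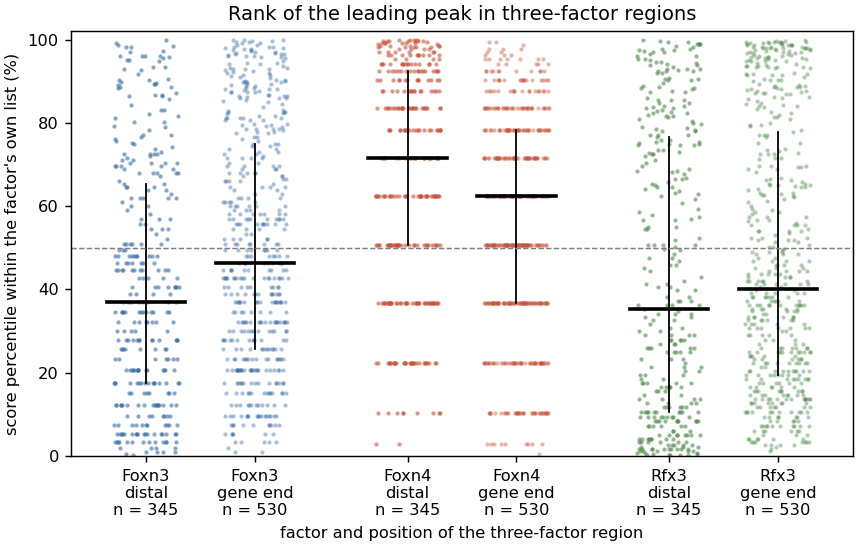
Score percentile of the leading peak within its factor's own list, on a scale from 0 to 100%, for the 345 distal and 530 gene-end three-factor regions (points); thick lines are medians, thin lines run between the quartiles, and the dashed line is at 50%. Distal Foxn4 points have a median of 71.5, and the distal Foxn3 and Rfx3 points have medians of 36.9 and 35.3.

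Across the 345 members the Foxn3 and Rfx3 percentiles ran together (Spearman rho 0.77), whereas Foxn4 ran weakly opposite to Rfx3 (rho -0.32) and to Foxn3 (rho -0.12). In the 530 gene-end regions the same values were 0.70, 0.15 and 0.15. These are descriptions over regions that share the same 3 lists, and the Foxn4 digestion time differed. The region inside Meis1 (chr11:18944820-18945315), a homeobox gene of retinal progenitors, had a Foxn4 percentile of 99.5 beside 70.5 for Foxn3 and 69.6 for Rfx3. The region at the start of Bbs2 (chr8:94097855-94098668), a subunit of the BBSome that carries proteins into cilia, had the opposite order, with 36.7 for Foxn4 and 95.2 for Rfx3 (score 195 in the Foxn3 list, also near its top). Its midpoint lay 1.11 kb from a gene end and 0.248 kb downstream of the annotated start.

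**Figure D3:**
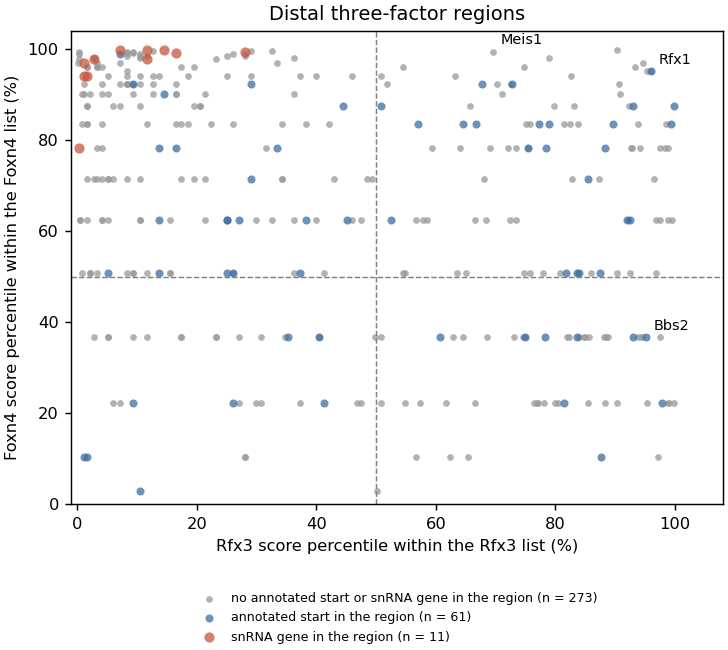
Foxn4 against Rfx3 score percentile, each within its own list, for the 345 distal three-factor regions; colours mark the 61 with an annotated start, the 11 with an snRNA gene and the other 273, and dashed lines are at 50%. The group of 273 includes the 12 members for which no start could be compared. Foxn4 points at 50.8% have exactly the list's median score. The snRNA regions lie at high Foxn4 and low Rfx3 percentiles.

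Part of that upper left corner was made of regions with a gene for a small nuclear RNA (snRNA), the short RNAs of the splicing and RNA-processing machinery. Of 25 merged regions in the whole series that held a gene RefSeq labels snRNA, 11 were members (3.19% of the members, 1.79% to 5.62%), against 3 of 530 gene-end regions, 7 of 181 distal regions with Foxn3 and Foxn4 only and 0 of 564 with Foxn3 and Rfx3 only. The 11 had Foxn4 percentiles of 78.3 to 99.9, Foxn3 percentiles of 27.8 to 75.6 and Rfx3 percentiles of 0.301 to 28.0. Of these, 5 lay within Tex14 and held Rnu1a1, Gm22068, Rnu3b1, Rnu3b3 and Rnu3b4. Another 2 were assigned to Rdm1, and 1 each to Arl4d (holding Rnu2-10), Gtf3c6 (Rnu3a), Kif2c and Igdcc3. The snRNA regions were wide, with a median of 1101 bp against 655 bp for the other members. Such genes exist in near-identical copies, so reads may have been divided among copies and these regions are uncertain. All had Rfx3 percentiles of 28.0 or less, and 1 such member was left with only peaks at or above the lower quartile of score in each list, and 0 at or above the median. Without the 11 the Foxn4 to Rfx3 rho was -0.29 over 334 members.

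The members were spread over a wide range of distances. Their midpoints were a median of 31.3 kb from the nearest protein-coding gene end (quartiles 6.74 and 89.7 kb, range 1.06 to 860 kb). The median was 12.5 kb for distal regions with Foxn3 and Rfx3 only and 78.8 kb for those with Foxn3 and Foxn4 only. Members 1 to 5 kb away numbered 76, those 5 to 20 kb away 69, those 20 to 100 kb away 121 and those beyond 100 kb 79. The share with Foxn4 alone above its list median was 26.3%, 29.0%, 46.3% and 55.7% in these bins. The median Foxn4 percentile was 62.5 in both nearer bins and 83.5 in both farther ones, while the median Foxn3 percentile was 48.1, 44.8, 32.2 and 27.8. The median Rfx3 percentile was 56.9, 47.5 and 27.0 up to 100 kb and lower still beyond it. Far members thus ranked higher for Foxn4 and lower for Foxn3 and Rfx3 than near ones by these medians, as a description of the values that chose them.

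**Figure D4:**
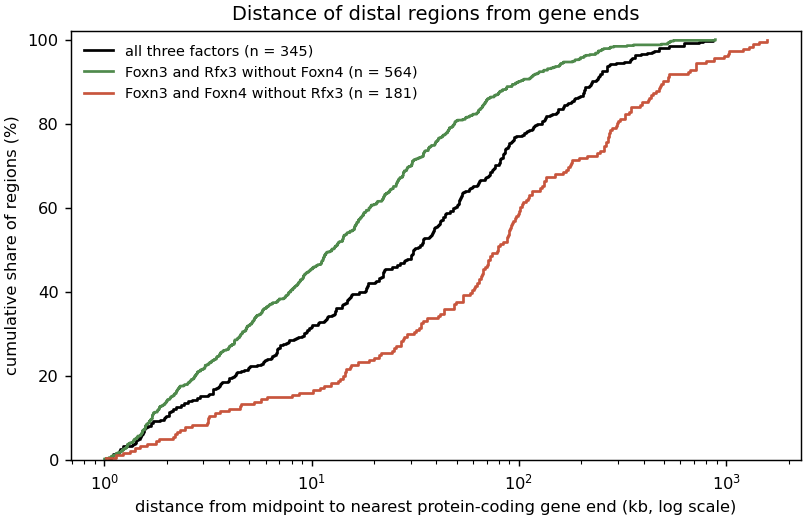
Cumulative share of regions (%) against the distance from the region's midpoint to the nearest protein-coding gene end (kb, log scale) for the 3 distal classes. The three-factor curve lies between the others over most of the range, with medians of 31.3, 12.5 and 78.8 kb.

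The 5 farthest members were nearest to Slc10a2 (860 kb), Nmbr (771 kb), Fhit (738 kb, inside the gene), Gramd3 (628 kb) and Zfhx4 (624 kb). These distances are to gene ends only, and the Fhit region lay 29.8 kb downstream of an annotated Fhit start. The Slc10a2 region had percentiles of 27.8 for Foxn3, 99.1 for Foxn4 and 0.301 for Rfx3, and Zfhx4, a zinc-finger homeobox gene, 5.33, 94.1 and 37.2. The Gramd3 region had 46.5, 78.3 and 72.0. The other two ranked lower for Foxn4, with 40.7, 22.3 and 66.5 for the Nmbr region and 66.1, 36.7 and 49.8 for the Fhit region. At the other extreme, the members just inside the limit were nearest to or inside Id1 (1.06 kb), Trim45 (1.07 kb), 4933440N22Rik (1.09 kb), Gtf3c6 (1.10 kb) and Bbs2 (1.11 kb). The three-factor regions just outside it were at Lin52 (0.939 kb), Ccna2 (0.936 kb), Gpr108 (0.926 kb), Ppm1b (0.870 kb) and Rbm15 (0.870 kb). No three-factor region lay between 0.939 and 1.06 kb.

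Of 345 members, 193 lay inside a protein-coding gene (55.9%, 50.7% to 61.1%). For distal regions with Foxn3 and Rfx3 only the share was 61.0% (odds ratio 0.812, 95% interval 0.619 to 1.07, adjusted p = 0.144, two-sided Fisher's exact test, Benjamini-Hochberg over 2 tests). For those with Foxn3 and Foxn4 only it was 42.0% (odds ratio 1.75, 1.22 to 2.52, adjusted p = 0.00497, same exact test). By the same exact test, the second difference did not pass the threshold with a gene-end limit of 2 kb (odds ratio 1.52, adjusted p = 0.0724) or 5 kb (1.34, adjusted p = 0.320), or among regions with no annotated start within 1 kb (1.25, adjusted p = 0.276). The last setting also left out every region on chromosome 18, where no starts could be compared. The second difference also did not pass with only peaks at or above the median score (1.26, adjusted p = 0.781, exact test) or the lower quartile (1.41, adjusted p = 0.513). Regions are not replicates, and neighbouring ones are not independent: 58 members had another member within 100 kb.

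The 345 members were assigned to the gene that held them or, failing that, the nearest gene, which gave 307 distinct genes, 1.40% of 21887 protein-coding genes. Gene-end three-factor regions touched 664 genes (3.03%). A gene that is nearest is not shown to be regulated. Long genes and genes with few neighbours can collect more distal regions, so the share of the distal genome assigned to a list is given where it matters.

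Among the 9 lists, transcription factors of retinal progenitors had the largest share of genes with a member, 8 of 36 (22.2%), against 1 of 36 with a gene-end region. Among them were Casz1, Foxn4, Id1, Id3, Id4, Meis1 and Sox2. The 10 members at the 8 genes were 2.90% of all members, while the list's genes took 0.464% of the distal genome. With only peaks at or above the median score, 4 of the list's genes had a member. The lists were chosen with earlier results of these data known. Such shares were not counted for the distal classes with only a pair of the factors, so whether they are particular to the members is unknown.

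Casz1, a factor of late progenitors, had 2 regions inside it, with Foxn3 percentiles of 80.2 and 9.65 and Rfx3 percentiles of 83.8 and 0.728. The Id genes encode inhibitors of basic helix-loop-helix factors. Id1 (60.1 for Foxn3, 78.3 for Foxn4, 92.6 for Rfx3) and Id4 (88.6, 78.3 and 75.4) had members above the median of every list, and Id3 (63.0, 50.8 and 41.2) had a middling one. The member nearest to Sox2, a progenitor factor, lay 527 kb away with percentiles of 40.7, 71.5 and 42.9. These regions differ widely in rank although their genes share a list.

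A list of 31 Fox and Rfx genes, which is only part of these families, had members at 4 (12.9%) and gene-end regions at 0. They were Foxn3 with 2 members, Rfx1, Foxn4 and Foxp2. Their 5 members were 1.45% of all members, and the list took 0.271% of the distal genome. With the same score filter 2 of the genes had a member. The region inside Foxn4 (chr5:114263934-114264515) ranked low for every factor, at 7.50 for Foxn3, 22.3 for Foxn4 and 7.20 for Rfx3. The region inside Foxp2 had 5.33, 62.5 and 45.9. Outside the list, the member nearest to Foxi3, another forkhead gene named after its values were seen, lay 25.8 kb away with 5.33 for Foxn3, 87.6 for Foxn4 and 1.61 for Rfx3. Members at Foxn3 and Rfx1 thus ranked high in every list, and those at Foxn4, Foxp2 and Foxi3 did not.

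**Figure D5:**
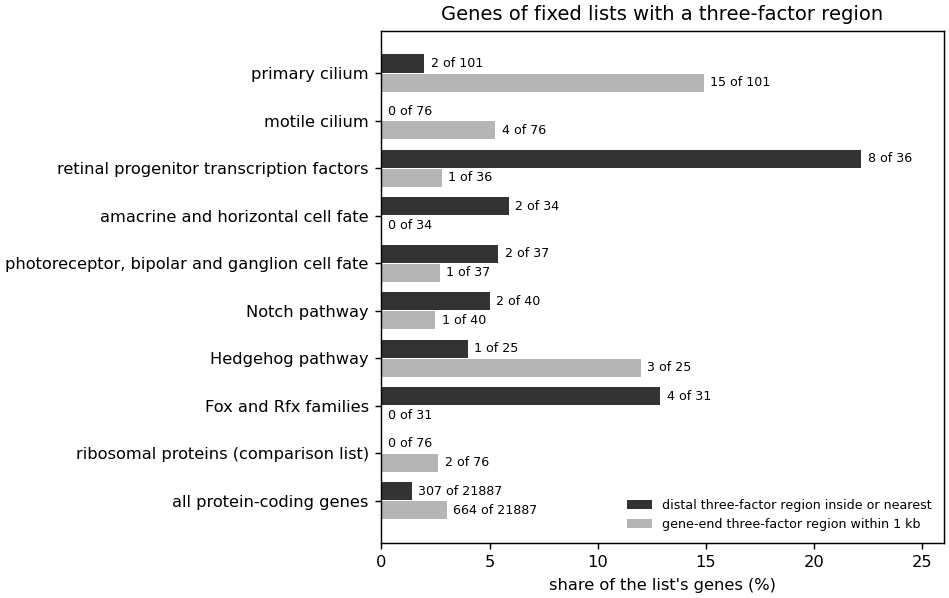
Share of the genes of each list (%) that hold or are nearest to a distal three-factor region (dark bars) or have a gene-end three-factor region within 1 kb (grey bars), with the counts beside the bars and all 21887 protein-coding genes at the bottom. Retinal progenitor factors reach 22.2% with distal regions, and primary cilium genes reach 14.9% with gene-end regions.

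Primary cilium genes had the opposite arrangement. Of 101, 15 (14.9%) had a gene-end region and 2 (1.98%) a distal one, Bbs2 and Ahi1. The Ahi1 region, 2.15 kb from the gene, had percentiles of 17.6 for Foxn3, 99.1 for Foxn4 and 28.0 for Rfx3. The share of all genes was 1.40% for distal and 3.03% for gene-end regions, so the distal share of the list is near that of all genes. Invs, a gene of the primary cilium, and Fam161a also had members but are not in the list. Cilium genes outside the list were not counted, so these are only examples. Invs, named after its values were seen, had 75.3, 36.7 and 75.0. Motile cilium genes had no member among 76 and gene-end regions at 4 (5.26%). Counting any gene within 50 kb of a member gave 5 motile cilium genes (6.58%), against 2.51% of all genes. Ribosomal protein genes, a comparison list, had no member among 76 and gene-end regions at 2.

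The remaining lists had 1 or 2 genes with a member each, beside 1.40% of all genes. In the Notch pathway 2 of 40 genes (0.580% of members against 0.187% of the distal genome) had a member, Notch1 and Maml3, which encodes a co-activator of Notch. The Maml3 region had percentiles of 93.5, 78.3 and 92.9. In the Hedgehog pathway 1 of 25 genes had members (0.580% against 0.185%), the receptor gene Ptch1 with 2, at 81.2, 78.3 and 59.4 and at 29.9, 36.7 and 2.73. Amacrine and horizontal cell fate genes had members at 2 of 34 (0.580% against 0.484%), Foxn4 and Sox2, both also in the progenitor list. Photoreceptor, bipolar and ganglion cell fate genes had members at 2 of 37 (0.580% against 0.365%), Myt1l (12.3, 50.8 and 9.27) and Pou4f1 (27.8, 90.3 and 5.06). The members at these 2 genes ranked low for Rfx3. Counting any gene within 50 kb of a member gave 0 genes of this last list, 1 amacrine and horizontal gene and 2 Hedgehog genes.

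Most genes had a single member: 276 had 1, 27 had 2 and 4 had 3 or more. Tex14 had 5, all with an snRNA gene. Zfp608, a zinc-finger gene, had 4, with Foxn4 percentiles of 71.5 to 98.5 and Rfx3 percentiles of 11.7 to 42.1. Rad51b, a gene of DNA repair, had 3, with Foxn4 percentiles of 98.5, 97.0 and 50.8. Tox2 had 3, of which 2 ranked high for Foxn3 (89.4 and 95.7) and Rfx3 (85.5 and 94.4) and low for Foxn4 (22.3 and 36.7). After Notch1 and Foxn3, the widest members were at Peg3 (1798 bp), Dlg4 (1776 bp) and Btbd17 (1571 bp).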

How the data were processed

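CUT&RUN peak lists of 3 antibodies from embryonic day 16 retina were analysed. The authors' deposited score per peak, with no stated scaling, was ranked within its list. Cutadapt, Bowtie2, UMI-tools, bedtools, SEACR and mm10 are named per the submitters' processing notes, without role or version; how libraries or IgG controls entered a list is not given in the sources used here. The lists held 2794, 2956 and 3981 peaks; read depth is unknown.

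Peaks overlapping by 1 bp were merged with Python 3.11.15 and pandas 2.3.3. Genes came from RefSeq on GRCm38.p6, whose table gives neither strand nor exons; promoter windows gave starts. Fisher's exact test (SciPy 1.17.1) was used for the shares inside genes, and intervals are 95% Wilson intervals. Code was tested on simulated data. The members and gene lists were chosen with earlier results of these data known. Named regions are the 10 with the highest lowest percentile, 5 on each side of the distance limit, the 5 farthest, those at genes of the lists (not all are reported here), genes with 3 or more, and the 5 widest; Chaserr, Mir22hg, Foxi3 and Invs were named after their values were seen. Alternatives changed the distance limit, overlap, score, width, gene set, position and gene assignment. The motif tests planned in windows of the regions need genome bases and were not run; RefSeq promoter windows, which hold none for chromosome 18, stood in for them.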

Additional observations from a re-analysis of the deposited data

How the results depend on the processing

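The number of members was 70 with only peaks at or above the median score of their list and 171 at or above the lower quartile, and 266 to 371 under the other 9 of 11 alternatives. The share inside a gene was 50.6% with a 5 kb limit, 64.3% with the median score and 49.6% with no annotated start within 1 kb. The annotated-start setting, which left 266 members, also dropped all regions on chromosome 18, 12 of them members, because no starts could be compared there. Against Foxn3 and Rfx3 only, the odds ratio turned to 1.20 with the median score (adjusted p = 0.781 by Fisher's exact test). Against Foxn3 and Foxn4 only, it lost its call at 2 kb (1.52), 5 kb (1.34), the median score (1.26), the lower quartile (1.41) and with no annotated start (1.25). Counting any gene within 50 kb gave 5 motile cilium genes, 1 amacrine and horizontal, 0 photoreceptor, bipolar and ganglion, 2 Hedgehog and 1 ribosomal gene, against 550 of all 21887 genes (2.51%). With the median score 4 progenitor factors and 2 Fox or Rfx genes had a member. Members with an snRNA gene numbered 0 with the median score, 1 with the lower quartile and 0 when the ends of every gene counted, by construction since an snRNA gene then is a gene end. Counting scores equal to the list median as above gave 45.2% with Foxn4 alone above and 20.3% with all above. The cause of the other changes was not tested. The 2 kb limit and lower quartile for the odds ratios, the annotated-start, snRNA and tie settings, and the score filter on the lists were chosen after seeing the data. No paired analysis was possible because each antibody has 1 peak list. The motif alternatives were not run because the tests they vary were not. Depth is unknown, so what it limits could not be assessed.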

Other observations

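A microRNA gene lay within 5 kb of the midpoint of 6 members. The same count was not made for other regions, so whether it is particular to the members is unknown. Mir210 was 374 bp from a member assigned to Rassf7, which had percentiles of 63.9 for Foxn3, 22.3 for Foxn4 and 30.7 for Rfx3. Mir7-2 was 757 bp from a member at Aen, with percentiles of 3.27, 22.3 and 47.5. Mir130a, Mir7000, Mir22 and Mir6976 lay 1627, 2189, 2313 and 2384 bp away, at Ypel4, Mapk8ip1, Wdr81 and Srf. The member near Mir7000 ranked at 89.8 for Foxn3 and 97.2 for Rfx3 and at 10.3 for Foxn4. These regions were picked for their position beside a microRNA gene after the data were seen.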
